A study of Mus musculus with 2 samples.

Results

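Checkpoint and costimulatory ligands are surface or secreted proteins through which myeloid cells restrain or stimulate T cells, and 10 genes of this kind were followed here with the receptors that sit beside them on myeloid cells: Cd274, Pdcd1lg2, Cd80, Cd86, Cd276, Icosl, Lgals9, Havcr2, Fgl2 and Cd200r1. They were chosen by name, and every array probe whose RefSeq accession belongs to one of them was taken, which gave 11 probes for the 10 genes of the 20143 genes with a named probe. Cd80 had 2 probes and the other 9 genes had 1 each. The samples were 2 cultures of C57BL/6 mouse bone marrow cells, both kept 4 days in medium that held 5% FBS and GM-CSF, which drives granulocyte and macrophage growth, at 40 ng/ml. One, GM-CSF + IL-6, also received 40 ng/ml of the inflammatory cytokine IL-6, and the other, GM-CSF ONLY, did not. Such cultures are used as a model of myeloid-derived suppressor cells (MDSCs), and the labels name no sorting step. The age and sex of the mice, and whether animals were pooled, are not given in the sources used here. Each culture was read on 1 one-colour array, so there was no replicate, no test was possible and no difference below has a replicate check.

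Ligands of the B7 family on an antigen-presenting cell engage receptors on a T cell. CD80 and CD86 bind CD28, which activates, and CTLA-4, which inhibits, while PD-L1 (Cd274) and PD-L2 (Pdcd1lg2) bind the inhibitory receptor PD-1. Galectin-9 (Lgals9) is a ligand of TIM-3 (Havcr2), and FGL2 is a secreted suppressor that binds the inhibitory Fc receptor encoded by Fcgr2b. MDSCs are known for PD-L1 on their surface, which is among the means by which they curb T cells. PD-L1 is induced by interferon through factors that include IRF1.

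Of the 11 probes, 10 were well above background on both arrays, covering 9 of the 10 genes. Among these 10 probes, 8 had a lower signal in the GM-CSF + IL-6 culture and 2 a higher one, against 51.4% lower and 48.6% higher among all 31516 probes measured on both arrays. Every measured member differed by a small amount. The log2 ratio, GM-CSF + IL-6 minus GM-CSF ONLY, ran from -0.24 for Fgl2 to 0.08 for Lgals9, with a median of -0.15, against a median of -0.01 over all measured probes. The smaller of 2 size thresholds was a log2 ratio of 0.32 in either direction, and the larger was 2-fold. Of the 10 probes, 0 passed the smaller one downwards (5.08% of all measured probes did), 0 upwards (6.25%), and 0 were 2-fold apart (0.466%). Signals are given on a scale set by the 75th percentile of each array. The unscaled percentiles were 486.2 with IL-6 and 549.7 without, a gap of 0.18 on the log2 scale. Before this scaling all 10 probes were dimmer in the GM-CSF + IL-6 culture, but so was the array as a whole. The median unscaled log2 ratio over all measured probes was -0.18.

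The error given with each log2 ratio is a technical SD, taken from 266 probes printed at least 5 times on each array. Measured probes were put in 4 equal classes by level, and the technical SD was 0.05 in the brightest class, 0.07 in the next, 0.13 in the one below and 0.26 in the dimmest, and it leaves out the error of labelling and of culture. Of the member probes, 7 lay in the brightest class, 2 in the next and 1 in the one below. By this error 5 of the 10 probes were lower by more than 2 technical SDs and 0 were higher, a criterion chosen after the values were seen. Among all measured probes 13.8% were lower and 12.8% higher by that criterion, and in the 2 brighter classes, which held 9 of the 10 member probes, 21.3% and 17.5%. The extraction software's own error model is wider, at 0.20 to 0.21 on the log2 ratio of each member probe. By it none of the 10 lay beyond 2 errors, but the share of all measured probes beyond 2 such errors was not calculated. The log2 ratios of all measured probes in the brightest class had an SD of 0.14, which is below that error. This count therefore does not set the members apart from other bright probes. Fewer cells that carry a transcript and less of it per cell cannot be told apart in these bulk cultures.

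**Figure D1:**
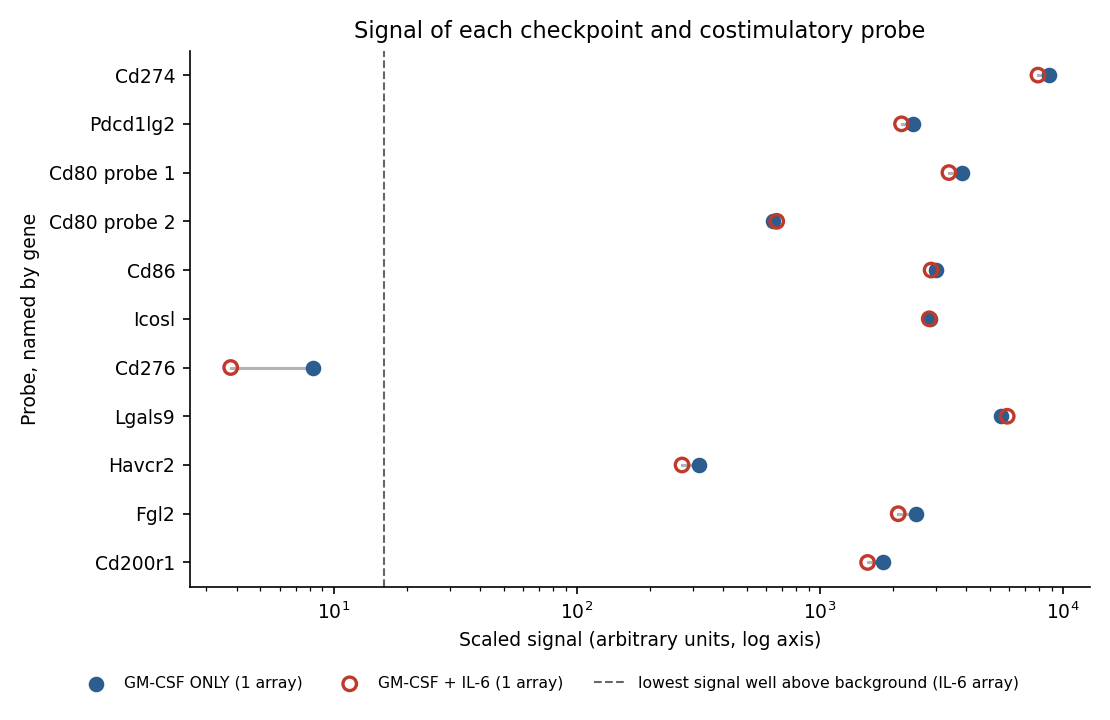
Scaled signal of each probe on the GM-CSF ONLY array (filled points) and the GM-CSF + IL-6 array (open points), on a log axis. The dashed line is the lowest signal well above background on the IL-6 array, 16.1. The 2 points of each measured probe lie close together, while those of Cd276 lie further apart and below the line.

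The sequences just before the RefSeq transcription starts (assembly GRCm38.p6) are shown for 3 ligands: Fgl2, which had the lowest log2 ratio, Lgals9, which had the highest, and Cd274, which encodes PD-L1. Each is the 250 bases before the start on the gene's own strand. Capitals mark letters that match one of 3 motifs of factors downstream of interferon, IL-6 or inflammatory signals.
Fgl2, chr5:21372423-21372672, plus strand: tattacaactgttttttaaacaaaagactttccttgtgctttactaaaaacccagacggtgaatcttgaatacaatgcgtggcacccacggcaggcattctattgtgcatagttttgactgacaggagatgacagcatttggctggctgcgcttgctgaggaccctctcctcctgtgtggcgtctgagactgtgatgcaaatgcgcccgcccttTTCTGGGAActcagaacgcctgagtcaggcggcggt
Lgals9, chr11:78984925-78985174, minus strand: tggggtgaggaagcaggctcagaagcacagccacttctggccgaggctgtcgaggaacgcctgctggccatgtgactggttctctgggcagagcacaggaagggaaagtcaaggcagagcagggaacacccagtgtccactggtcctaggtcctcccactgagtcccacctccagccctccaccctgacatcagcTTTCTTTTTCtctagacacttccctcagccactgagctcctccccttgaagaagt
Cd274, chr19:29367188-29367437, plus strand: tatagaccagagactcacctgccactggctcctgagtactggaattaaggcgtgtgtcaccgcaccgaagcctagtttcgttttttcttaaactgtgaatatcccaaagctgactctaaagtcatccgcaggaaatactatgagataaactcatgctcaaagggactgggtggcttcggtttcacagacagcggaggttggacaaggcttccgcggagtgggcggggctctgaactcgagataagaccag
The motifs were the core of the interferon-stimulated response element (GAAA, any 2 bases, GAAA), the element bound by STAT dimers (TTCNNNGAA) and a form of the NF-kB element (GGG, any 2 bases, TTTCC), searched on both strands. Of the 10 genes, 8 have an entry in the table used, and Cd86 and Cd200r1 were named only. The STAT element letters occurred in 1 of the 8, Fgl2, at 36 to 28 bases before the start, against 7.02% of all 32851 promoters of this length. The interferon element letters occurred in 1, Lgals9, on the opposite strand at 55 to 46 bases before the start, against 2.98% of all promoters. The NF-kB letters occurred in 0 of the 8 and in 1.41% of all. No 2 matches overlapped. A match describes letters in this window and is not a measured binding site.

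The ligands of PD-1 had nearly equal log2 ratios. Cd274 had a scaled signal of 7888 in the GM-CSF + IL-6 culture and 8743 in the GM-CSF ONLY culture, 1.11-fold lower with IL-6 (log2 ratio -0.15 ± 0.05, technical SD). Its neighbour in the genome, Pdcd1lg2, had 2167 against 2420.1, 1.12-fold lower (-0.16 ± 0.05). The ratios of the 2 genes differed by 0.01 with a technical SD of 0.07, a comparison in which any overall shift between arrays cancels. In the brightest class of probes, 11.7% had a lower log2 ratio than Cd274 and 9.93% a lower one than Pdcd1lg2, so both lay towards the lower side of the bright probes without being at its edge. Cmtm6, which protects PD-L1 from degradation, had 12561 against 13587.5 (-0.11 ± 0.05), and its ratio differed from that of Cd274 by less than 1 technical SD of the difference.

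The B7 ligands of CD28 and CTLA-4 gave mixed values. The brighter Cd80 probe had 3394 with IL-6 and 3826 without, 1.13-fold lower (log2 ratio -0.17 ± 0.05), while the dimmer Cd80 probe had 664.8 against 641.2, 1.04-fold higher (0.05 ± 0.07). These probes carry the same accession, and their ratios were 0.22 apart with a technical SD of 0.08, so the direction of Cd80 depended on the probe. Among 2394 genes with 2 measured probes outside the dimmest class, the median gap between the probes was 0.10 and 16.6% had a gap at least as wide as that of Cd80. The brighter probe lay in row 383 of the 384 rows of spots, next to the edge of the array, and relative to the median of 115 measured probes around it the ratio was -0.15. Cd86 had 2867 against 2996, 1.04-fold lower (-0.06 ± 0.05), which was within 2 technical SDs, and -0.13 after normexp, a background correction run on pixel signals. The difference between the brighter Cd80 probe and Cd86 was -0.11 with a technical SD of 0.07, and -0.03 after normexp.

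Among the B7 relatives, Icosl, the ligand of the T cell costimulator ICOS, was the member closest to no difference. Its scaled signal was 2817 with IL-6 and 2845 without (log2 ratio -0.01 ± 0.05), and 49.3% of probes in its level class had a lower ratio. Cd276, which encodes B7-H3, was not well above background on either array. Its scaled signals of 3.78 with IL-6 and 8.20 without lay under the lowest called well above background, 16.1 and 14.8, and its mean pixel signals of 33.7 and 42.1 were below the local background of 60.0 and 53.0. No fold is given for it.

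Galectin-9 and its receptor TIM-3 lay on opposite sides of 0. Lgals9 had 5894 with IL-6 and 5576 without, 1.06-fold higher (log2 ratio 0.08 ± 0.05), the highest ratio among the members and within 2 technical SDs. Havcr2 had 271.2 against 317.8, 1.17-fold lower (-0.23 ± 0.13), also within 2 technical SDs, as its level class had a wider spot error. The ratio of Lgals9 exceeded that of Havcr2 by 0.31 with a technical SD of 0.14. The size for Lgals9 moved with the processing. Its mean pixel signals were 4838 and 4826 while its processed signals were 5543 and 5929, and after normexp, which starts from pixel signals without the software's detrending, its ratio was 0.17.

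Fgl2 and Cd200r1 had the lowest ratios among the bright members. Fgl2 had 2100.1 in the GM-CSF + IL-6 culture and 2485 in the GM-CSF ONLY culture, 1.18-fold lower (log2 ratio -0.24 ± 0.05), and 2.68% of probes in the brightest class had a lower ratio. Fcgr2b, the gene of an FGL2 receptor, had 7383 against 8919.8 (-0.27 ± 0.02), and the ratios of the ligand and receptor genes differed by 0.03 with a technical SD of 0.05. With the local median around 1 of its several spots subtracted, Fcgr2b had -0.21. Cd200r1, an inhibitory receptor of myeloid cells for CD200, had 1572 against 1814, 1.15-fold lower (-0.21 ± 0.07). Its relatives Cd200r4 and Cd200r3, which pair with activating adaptors, had -0.09 ± 0.07 and 0.07 ± 0.07. The Cd200r1 ratio lay below that of Cd200r3 by -0.28 with a technical SD of 0.09, and differed from that of Cd200r4 by -0.12 with the same SD. These receptor genes are close relatives, and cross-hybridisation between them was not tested.

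**Figure D2:**
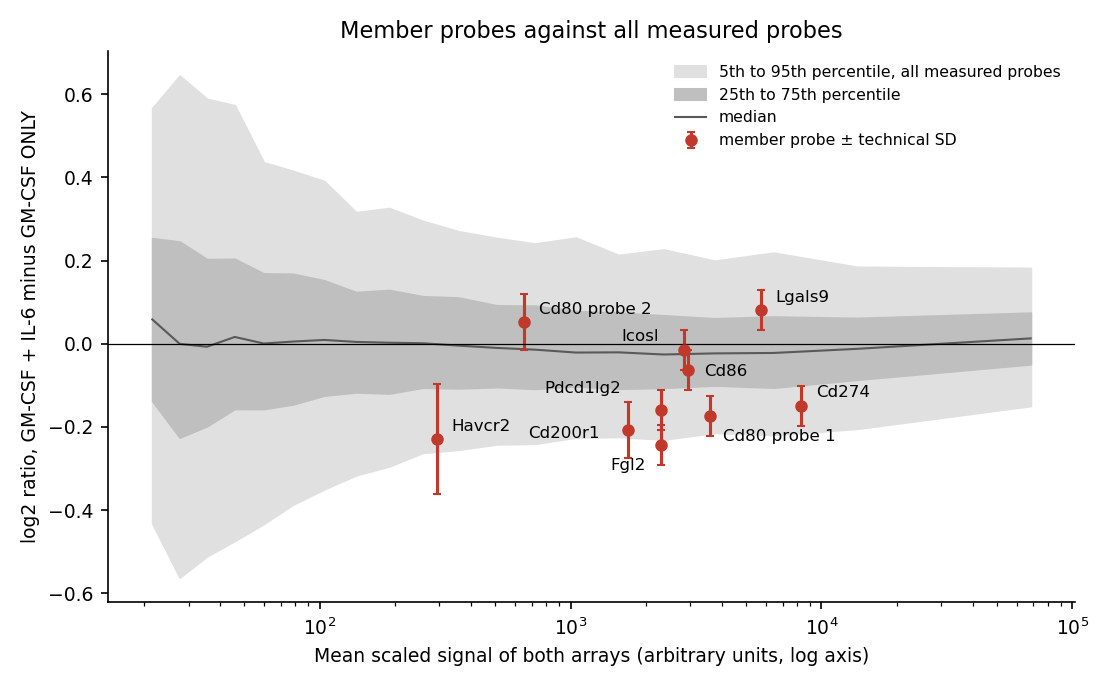
Log2 ratio of each measured member probe (red points, bars are the technical SD) against its mean scaled signal on a log axis, over the spread of all 31516 measured probes (grey bands, percentiles in 20 level bins). Fgl2 at -0.24 lies by the lower edge of the wide band, most members lie below the dark line of medians, Lgals9 and the dimmer Cd80 probe lie above it, and Icosl lies close to it.

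The members' places on the array were checked, since some areas held many differing probes. None of the 11 probes lay in the outermost row or column or in the 22 tiles crowded with differing probes of no gene symbol. The median log2 ratio of the measured probes within 10 rows and columns of each member ran from -0.04 to 0.04. With this local median subtracted, 7 rather than 8 of the 10 probes were below 0, as Icosl became 0.03. The share of all measured probes below their own local median was not calculated. The ratios of Fgl2, Cd200r1 and Cd274 were -0.25, -0.20 and -0.16.

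Of the 10 measured probes, 9 kept their sign under all 11 other settings run on single probes. Settings that only changed filters, background calls or outlier spots left each of these ratios unchanged, so they were no check on them. The range over these settings was -0.16 to -0.13 for Cd274, -0.16 to -0.13 for Pdcd1lg2, -0.18 to -0.15 for the brighter Cd80 probe, -0.26 to -0.23 for Fgl2, -0.23 to -0.19 for Havcr2 and -0.23 to -0.19 for Cd200r1. Icosl, near 0, ran from -0.06 to 0.03.

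**Figure D3:**
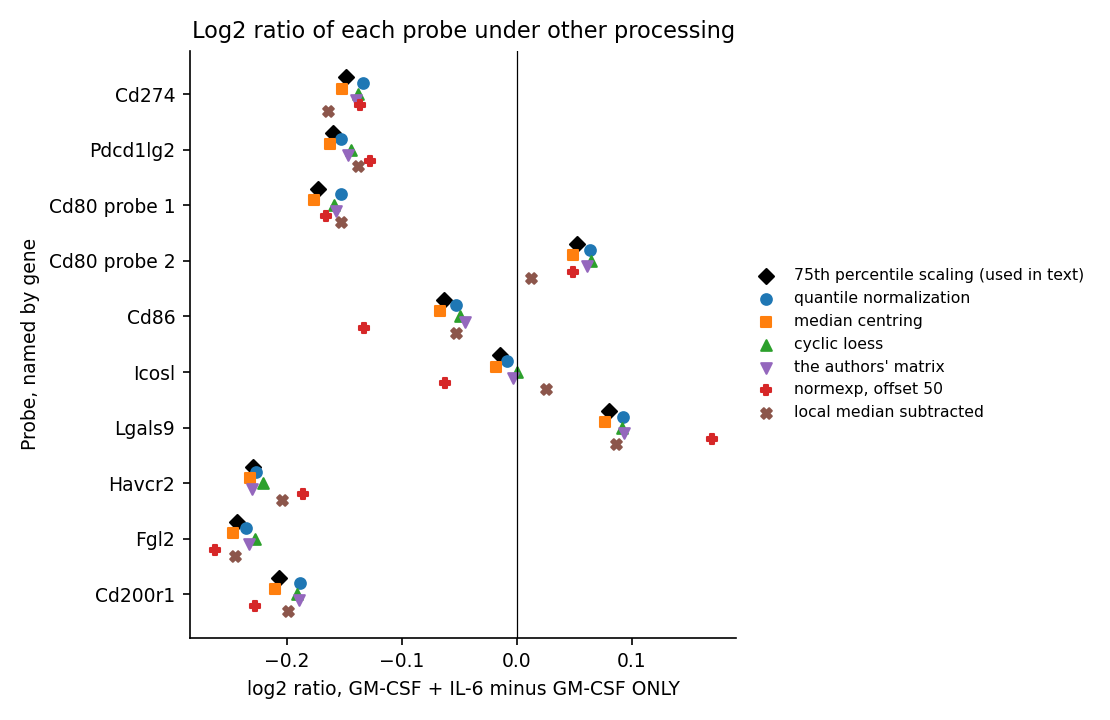
Log2 ratio of each measured member probe (horizontal axis) under the scaling used in the text and 6 other settings (symbols). The symbols of Cd274, Pdcd1lg2, Fgl2, Havcr2 and Cd200r1 all lie left of 0, those of Lgals9 right of it, and those of Icosl on both sides.

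The wider set of checkpoint and costimulatory genes held the T cell receptors of these ligands and other families. Of 42 genes listed, 41 had a probe and 32 were measured, of which 22 were lower with IL-6 and 10 higher, and the median log2 ratio was -0.09. With the dimmest class left out, 16 were lower and 10 higher, and after normexp 18 of the 32 were lower and 14 higher. For 3 of the 32, Icos, Lilrb4a and Hmgb1, probes lay on both sides of 0. Among all 13843 measured genes 56.2% were lower and the median was -0.02. Of the 32, 2 had a log2 ratio at or below -0.32 (3.55% of all measured genes did) and 0 passed this size upwards (4.17%). Both were dim. Pdcd1, which encodes PD-1, had 87.5 against 121.1 (-0.47 ± 0.13), and Cd200, the ligand of Cd200r1, had 155.1 against 203.8 (-0.39 ± 0.13) from a probe in an area of the array crowded with differing probes. After normexp these ratios were -0.15 and -0.14, so neither passed this size, and the median of the 32 was -0.013. Normexp also moved the median over all measured probes, from -0.01 to 0.03. The next lowest outside the dimmest class were Fcgr2b, the costimulatory receptor gene Cd40 at -0.19 ± 0.13 and Pirb, an inhibitory receptor for MHC class I, at -0.18 ± 0.05.

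On the other side, Lgals1, which encodes galectin-1, had 45215 with IL-6 and 38931 without, 1.16-fold higher (0.22 ± 0.05). Cmtm4, a relative of Cmtm6, had 0.18 ± 0.13, and Tnfsf9, the ligand of the costimulator 4-1BB, 0.09 ± 0.07. Cd244a, a receptor for CD48, had 0.08 ± 0.05 and Cd200r3 had 0.07 ± 0.07, which were 0.03 and 0.16 after normexp. The 9 genes not measured on both arrays were Ctla4, Vtcn1, Vsig4, Cd160, Tigit, Havcr1, Timd4, Tnfsf18 and Btn2a2. Cd28, the activating receptor of CD80 and CD86, was measured at 307.6 against 341.0 (-0.15 ± 0.07).

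Genes that act on expression of these ligands, with the receptors of the added cytokines, were all measured. Of the 23 described, 19 were lower and 4 higher, with a median of -0.10, against 56.2% lower and a median of -0.02 over all measured genes, and 0 reached a log2 ratio of 0.32 in either direction. After normexp 1 did, Irf1 at -0.35. This gene, whose product binds the Cd274 promoter after interferon, had 10683 against 13090.3 (log2 ratio -0.29 ± 0.05). The ratio of Cd274 lay above that of Irf1 by 0.14 with a technical SD of 0.07 (0.22 after normexp). Stat2 had -0.24 ± 0.05 and the NF-kB subunit gene Rela -0.22 ± 0.05, both from probes in crowded tiles, and the IL-6 receptor gene Il6ra had -0.22 ± 0.05. Ifnar1, a chain of the type I interferon receptor, had -0.20 ± 0.05, with 0.03 on another of its probes.

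The highest ratios of this set were those of Socs3, a feedback inhibitor induced by STAT3, at 0.18 ± 0.05 from a probe in a crowded tile (0.30 after normexp), Myc at 0.09 ± 0.03, the interferon-gamma receptor gene Ifngr1 at 0.06 ± 0.05 and Csf2rb, the shared chain of the GM-CSF receptor, at 0.04 ± 0.05. The sign of the last pair was not stable, as Ifngr1 had -0.02 with the local median subtracted and Csf2rb -0.0058 in the authors' matrix. The next highest was Tyk2 at -0.02 ± 0.07, from a probe in a crowded tile or at the array edge, which was not recomputed under other settings. Ifngr2 had -0.02 ± 0.05, and 0.01 with the local median subtracted. Jak2, a kinase gene that lies near Cd274 on the same chromosome, had -0.05 ± 0.05, and Stat3, which carries the IL-6 signal, had -0.09 ± 0.02, with 0.06 on its other probe and -0.03 with the local median subtracted.

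**Figure D4:**
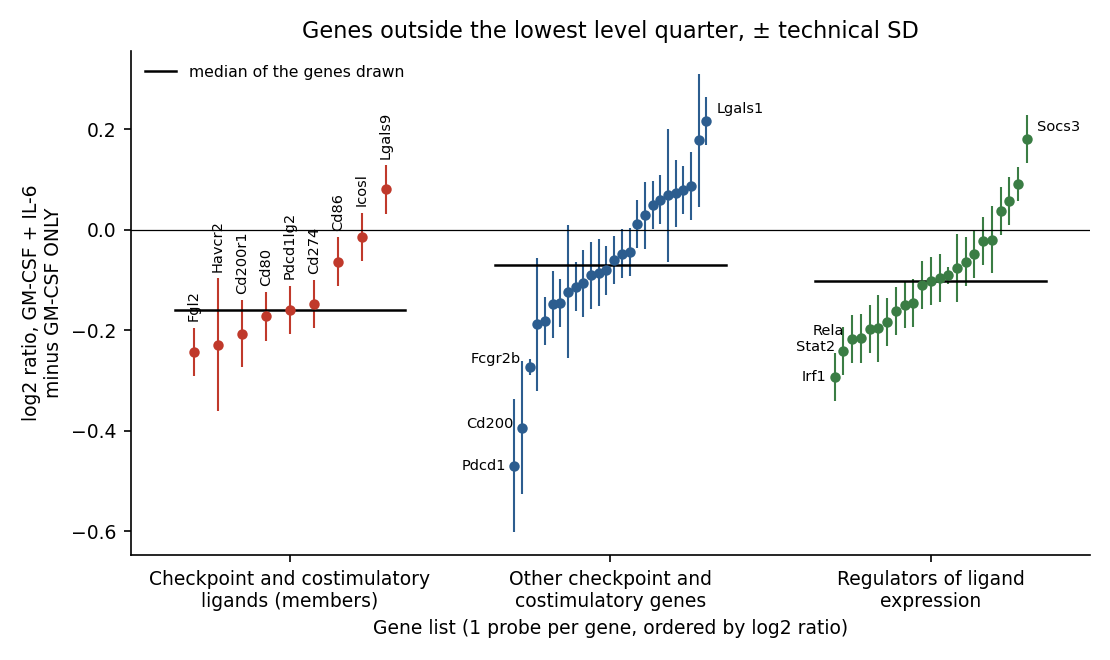
Log2 ratio of each gene outside the dimmest class, with the technical SD as bar, for the 9 measured members, 26 other checkpoint and costimulatory genes and 23 regulators, each ordered by value. The horizontal bars are the medians of the genes drawn, -0.16, -0.07 and -0.10, and most points of each list lie below 0.

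Surface markers of MDSCs were read on both arrays, which by itself does not identify the cells as MDSCs. Itgam, Ly6c1, Cd33 and Spn were well above background on both arrays, with log2 ratios from -0.13 to 0.12 and probes on both sides of 0 for Itgam and Ly6c1. Ly6g and Ly6c2 had no probe named through the RefSeq table and were not analysed here. Marker lists of monocytes, dendritic cells, macrophages and further cell types were also read, without assigning their signal to separate cells. Some markers were near the lowest signal well above background, such as Cd8a at 22.8 with IL-6 and 21.9 without. Monocyte markers were lower in 5 of 6 measured genes, with a median of -0.18 and a summed scaled signal of 87438 with IL-6 against 100241 without. Most of that gap came from the Csf1r probe used, at 57301.8 against 68231.5, and another probe of Csf1r had a log2 ratio of 0.26. Without Csf1r the sums were 30135.9 and 32009.4. Of the 6 monocyte genes, 2 passed the smaller size threshold downwards (3.55% of all measured genes did) and 0 upwards (4.17%). These were Cx3cr1 at -0.58 ± 0.13, with -0.58 on its other probe too, and Ms4a6c at -0.43 ± 0.07. Both were added after values were seen. After normexp the monocyte median was -0.25. Dendritic cell markers were lower in 6 of 7, with a median of -0.12 and sums of 36027 against 41383, a median that was -0.04 after normexp, and Xcr1 was not well above background. Most of that gap came from Ccr7, without which the sums were 12045 and 12523.9. Only 4 of the 7 genes lay outside the dimmest class. Macrophage markers were lower in 5 of 7, with a median of -0.08 and sums of 13377 against 14233. The median was below 0, as over the members and over all measured genes, in 6 of the 8 marker lists. Over all measured genes 56.2% were lower, the share to set beside each count of markers.

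Mast cell and basophil markers were higher in 7 of 7, with a median of 0.20 and sums of 43289.6 against 37992, though a second probe of 1 of the 7, Tpsb2, had -0.11 where the one used had 0.42. Neutrophil markers were lower in 5 of 10, with a median of 0.03 that was -0.01 in the authors' matrix, so its sign depended on the processing. Their sums were 1625780 with IL-6 and 1573330 without, or 1155460 and 1146300 with S100a9 left out. B cell markers were lower in 6 of 7, with a median of -0.04 (0.02 after normexp) and sums of 23960.2 against 24526, and T and NK cell markers in 5 of 8, with a median of -0.03 and sums of 9096 against 8549, or 2990.25 against 3098.4 without Cd4, while Ncr1 and Klrb1c were not well above background. The part of cell composition in the members' ratios was not tested.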

How the data were processed

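Per the file headers, Agilent Feature Extraction 10.7.1.1 gave the deposited intensities from 1 Cy3 channel, with spatial and multiplicative detrending on, and both arrays came from 1 slide and 1 scan. The authors' deposited matrix holds log2 values of 55821 probes. Both columns had a median of 5.10 and followed each array's own log2 intensities at r = 0.99998 across probes, uncentred per gene. How they were normalized is not stated in the labels or headers.

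The value used was log2 of the processed intensity minus the array's 75th percentile over non-control spots. After removal of outlier spots, repeated spots were averaged, leaving 55669 probes. A probe was measured when at least 50% of its spots were well above background on both arrays, which held for 31516. No spot was saturated. With 1 array per group no test was run, and precision is limited by that number. Accessions were named through a RefSeq table of GRCm38.p6 without versions. Genes of the wider lists were read from their brightest measured probe. Crowded tiles were areas of 16 rows by 12 columns with at least 4 probes of no symbol that were 2-fold apart.

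The members, lists and thresholds were chosen with earlier results of these data known. The rule named every member probe and, of the wider lists, the 5 lowest and 5 highest genes outside the dimmest class. Cmtm6, Cd200r4, Cd28, Jak2, Stat3 and Ifngr2, and the markers Cx3cr1 and Ms4a6c, were added after values were seen. One gene of the regulator list is not reported here and was left out of its counts. The calculation was tested on simulated data. Alternatives were normexp (offset 50), quantile normalization, cyclic loess, centring on the median, the authors' matrix, outlier spots kept, other background calls and filters, and corrections for position. Tools were Python 3.11.15, numpy 2.4.6, pandas 2.3.3, matplotlib 3.10.9, R 4.3.3 and limma 3.58.1.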

Additional observations from a re-analysis of the deposited data

How the results depend on the processing

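The direction and size of most members' differences varied little with the scaling. Of 110 recomputed log2 ratios of member probes, 107 moved by less than the technical SD and 3 by more, all 3 with normexp, which gave -0.13 for Cd86, -0.06 for Icosl and 0.17 for Lgals9. The 107 include ratios from settings that only changed filters, background calls or outlier spots, which could not alter them. Icosl changed sign with cyclic loess and with the local median subtracted. The median over members stayed between -0.16 and -0.13 in 13 alternatives. Without a filter on dim probes, 1 member probe passed the smaller size threshold downwards and 1 was 2-fold lower. Both times it was that of Cd276, which was under background on both arrays. In that setting 40.6% of all 55669 probes were lower, against 51.4% of the measured probes with the filter. Of the wider checkpoint list 17 rather than 10 genes were higher, out of 41 rather than 32, and 2 rather than 0 were past the smaller threshold. With normexp 0 rather than 2 of that list passed it downwards, and 1 rather than 0 of the regulator list. With normexp the median of the wider checkpoint list was -0.013 in place of -0.09, and the cause was not tested. Over all measured probes normexp gave a median of 0.03 in place of -0.01, with 41.8% rather than 51.4% lower. For 25 further genes given by name, 15 of 271 recomputed ratios shifted beyond 1 technical SD, 11 of them with normexp. Of 119 recomputed differences between 2 genes 7 did, 6 with normexp. Of the 11 pairs of genes compared, 4 changed sign in some setting. With the local median subtracted Cd274 minus Pdcd1lg2 was -0.03 and Fgl2 minus Fcgr2b -0.03. With normexp Cd274 minus Pdcd1lg2 was -0.0085, Cd200r1 minus Cd200 -0.09 rather than 0.19 and Icosl minus Icos -0.15 rather than 0.12. Csf2rb, Ifngr1 and Ifngr2, near 0, changed sign in some settings. Of the 80 recomputed marker medians 4 moved, and those of the B cell, MDSC surface, T and NK cell and neutrophil lists, near 0, changed sign in some settings. Signal over background limits Cd276 and the dim genes Pdcd1 and Cd200. No paired analysis was possible because neither group held more than 1 array.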
